A study of Homo sapiens with 12 samples.

Results

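The subunits of the respiratory chain were followed in T-47D cells, an oestrogen receptor positive human breast cancer line, after 24 h with 1 µM palbociclib, an inhibitor of the cell cycle kinases CDK4 and CDK6, or with the solvent DMSO alone. All cells were of wild-type genotype and grown in serum-containing medium. RNA was measured as FPKM (fragments per kilobase of transcript, scaled for library size) from poly(A) RNA in 3 DMSO and 3 palbociclib libraries, and open chromatin by ATAC-seq in 3 and 3 further libraries from separate dishes. The labels call the RNA libraries replicates without saying that they came from separate cultures, so their p-values measure only the spread between these libraries, which may be technical. The members were chosen by gene symbol: rows named as subunits of complexes I to V in the authors' table, together with the protein genes of the mitochondrial genome. Of 19460 genes, 92 matched. They comprised 76 nuclear subunits, 13 mitochondrially encoded subunits and 3 other transcripts, namely the antisense RNA UQCRB-AS1, the read-through transcript ATP5MF-PTCD1 and UQCRHL, an intronless copy of UQCRH. All subunits had a mean of at least 0.5 FPKM and were tested, whereas UQCRB-AS1 and UQCRHL lay below that minimum.

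The respiratory chain sits in the inner mitochondrial membrane. Complexes I, III and IV pass electrons from NADH to oxygen and pump protons, complex II feeds in electrons from succinate without pumping, and complex V, the ATP synthase, lets the protons flow back to make ATP. Its subunits come from 2 genomes. Complex II is encoded in the nucleus alone, while complexes I, III, IV and V combine imported proteins with core subunits made inside the organelle. Mitochondrial DNA is copied into long transcripts of both strands, which are then cut into single messengers. Most protein genes lie on the transcript of 1 strand, and ND6 is the only one on the other.

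Of 9 luminal epithelial markers, 8 were called higher in palbociclib by the test used below, which called 20.9% of all genes higher. The other, EPCAM, was not called and averaged 195.6 FPKM in DMSO and 177 in palbociclib. Of the basal markers, 1 of 2 with a row passed the minimum of 0.5 FPKM, as did 1 of 3 fibroblast and 1 of 2 immune markers, and no endothelial marker had a row. The proliferation genes MKI67, CCNE2 and RRM2 were lower by 3.60 to 5.38 on the log2 scale, which serves as the check of the treatment. The median log2 change over all genes tested was 0.0023. The deposited FPKM are scaled to a common median ratio, which holds this value near 0, so every change below is in effect relative to the median gene. The total depth of the RNA libraries cannot be read from FPKM.

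The messengers of the mitochondrial genome were higher in palbociclib, apart from ND6, which was lower, and the nuclear subunits moved little and in both directions. In bulk libraries, a change in the number of cells that carry a transcript and a change in its amount per cell cannot be told apart. Of the 13 mitochondrial subunits, 10 were higher and 1 was lower at an adjusted p under 0.05 (limma, Benjamini-Hochberg over 15869 genes), and ND1 and ND2 did not pass. Of the 76 nuclear subunits, 15 were higher and 9 were lower, or 31.6% in either direction. With DMSO replicate 1 left out 14 nuclear calls remained in number, with DMSO replicate 2 left out 13, with palbociclib replicate 1 left out 15, and 18 to 25 with any of the others left out. By the same test 43.7% of all genes were called, 20.9% higher and 22.9% lower, so the nuclear subunits were called no more often than genes at large. Among genes with a mean of at least 20 FPKM, a level that every subunit exceeded, the share called was 58.6%. Treated and control libraries did not overlap in 32 of the 76 nuclear and 11 of the 13 mitochondrial subunits, against 54.7% of all genes. Most nuclear subunits of complexes I, III, IV and V described below were named only if called and without overlap, so their separation was a condition of the choice. The median log2 change was 0.28 over the mitochondrial subunits and 0.03 over the nuclear subunits. The nuclear median was 0.0148, 0.0095 and 0.041 with DMSO replicates 1, 2 and 3 left out in turn, and 0.0114, 0.0073 and 0.0464 with palbociclib replicates 1, 2 and 3. The nuclear changes were small: the median of their absolute log2 changes was 0.067, against 0.163 over all genes tested. Those 2 medians are at unlike levels, since the genes tested reach down to a mean of 0.5 FPKM. No median absolute change was taken over genes of at least 20 FPKM. In the authors' deposited table, 24 members were up and 7 down past an adjusted p of 0.05, where 38.2% of all genes were called, and 30 of the 35 members called by limma were called the same way there. Not called there (DESeq2) were NDUFA3 (adjusted p = 0.0793), NDUFB4 (0.0586), NDUFB10 (0.0907), NDUFS3 (0.067) and NDUFS6 (0.052).

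**Figure D1:**
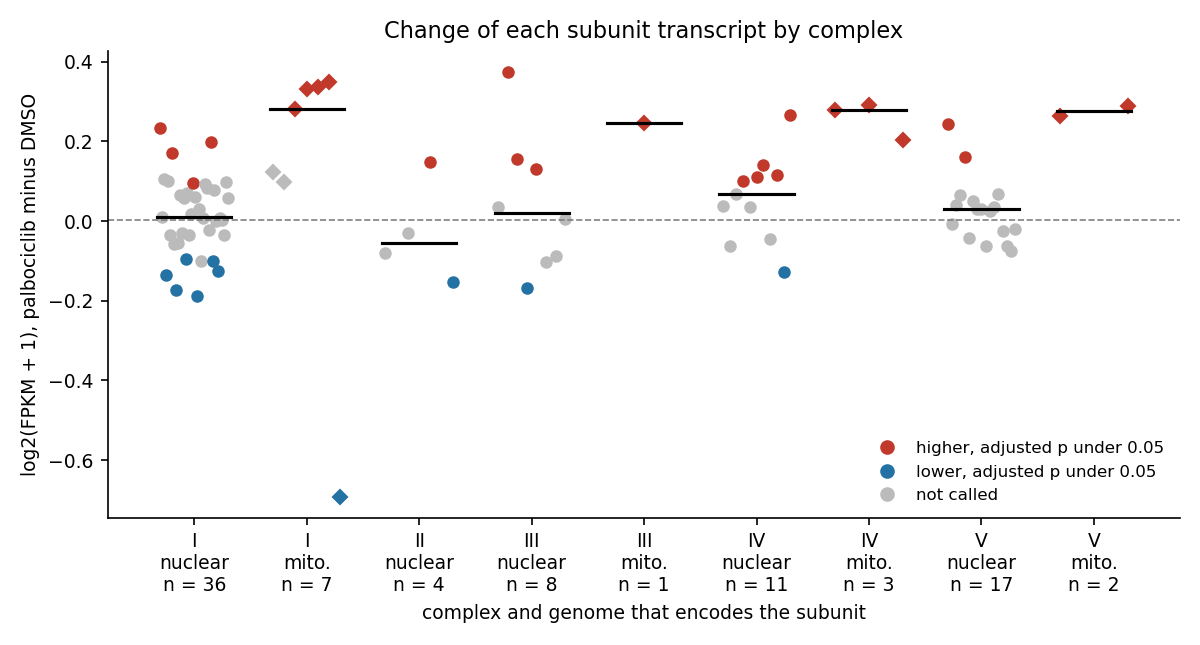
Difference in log2(FPKM + 1) between palbociclib and DMSO for each subunit, by complex and by the genome that encodes it, with a black bar at each median and a dashed line at the median of all genes tested. The mitochondrial medians of complexes I, III, IV and V lie between 0.24 and 0.28, the nuclear medians lie between -0.05 and 0.07, and ND6 stands alone at -0.69.

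These counts depend on how the libraries are scaled. The mitochondrial messengers make up so much of the RNA that the summed FPKM rose from 719059 ± 12939 in DMSO to 759318 ± 12991 in palbociclib (SD, n = 3). With every library scaled to the same sum, a setting added once the values were known, the nuclear split turned from 15 higher and 9 lower to 5 higher and 25 lower, and the nuclear median from 0.03 to -0.05. The median of all genes fell with it, to -0.06, and the share of all calls that were higher went from 47.7% to 31.5%. Relative to the median of all genes, the nuclear subunits stood at 0.02 with the deposited scaling and at 0.01 with the common sum, and the mitochondrial subunits at 0.28 and 0.26. Scaling to a common sum left 10 mitochondrial subunits higher and ND6 lower. Named nuclear subunits that lost their rise with it were NDUFA3 (adjusted p = 0.0895), SDHC (0.185), UQCRB (0.0845), UQCRC2 (0.117), COX7A2 (0.147), COX7C (0.267) and ATP5F1E (0.153). Among the other genes of the pathway, TOP1MT (adjusted p = 0.0955), COQ10B (0.0632) and ATP5IF1 (0.539) lost theirs. SDHA (-0.16, adjusted p = 0.00433) and ATP5MC1 (-0.12, adjusted p = 0.0201) gained a call as lower with this scaling (limma). Quantile normalization gives each rank the same value in every library, and the mitochondrial messengers hold top ranks. It called none of these genes higher, called ND6 lower and moved the median of all genes to 0.06. With no filter on low values, limma lost the calls of ND3 (adjusted p = 0.0521), COX3 (0.0976), ATP6 (0.0520), ATP8 (0.105) and COX8A (0.0646).

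As a share of the summed FPKM, a share per transcript length and not of reads, the 13 mitochondrial subunits took 25.1%, 25.4% and 26.6% in the DMSO libraries and 29.9%, 28.2% and 29.5% in the palbociclib libraries. The 76 nuclear subunits together took 2.06%, 2.04% and 2.05% in DMSO and 1.99%, 2.02% and 1.95% in palbociclib. Neither measure overlapped between treatments, and they moved in opposite directions. Both shares have the same denominator, the summed FPKM, which rose in palbociclib. A lower nuclear share is therefore not by itself a lower nuclear FPKM, and the median nuclear log2 change was 0.03 with the deposited scaling. The mitochondrial total was 12.5 ± 0.40 times the nuclear total in DMSO and 14.7 ± 0.66 times in palbociclib (SD, n = 3).

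**Figure D2:**
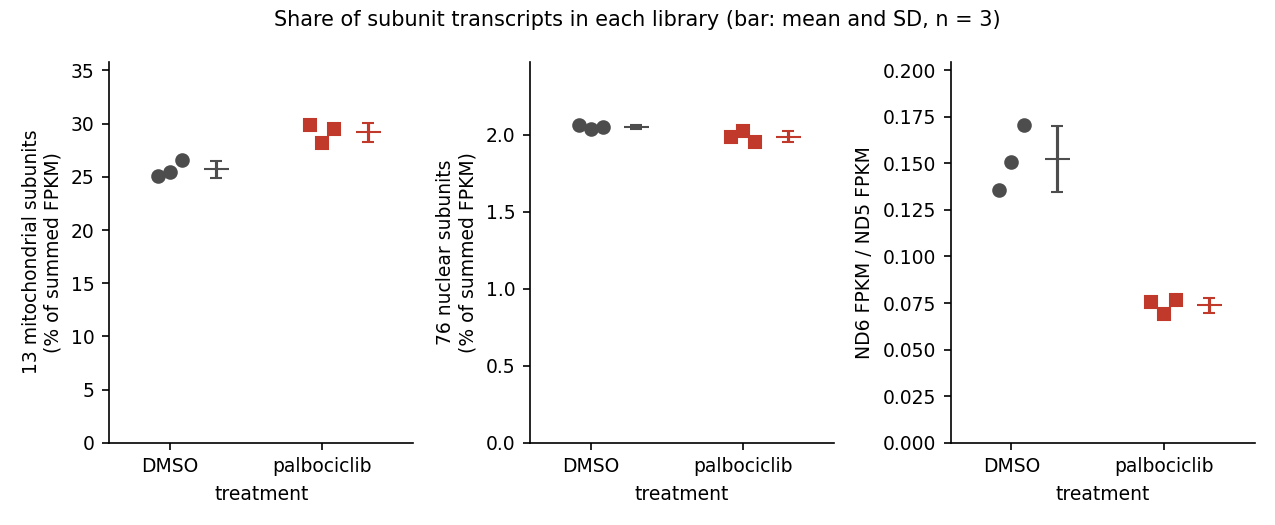
Share of the summed FPKM taken by the 13 mitochondrial and the 76 nuclear subunits, and the ratio of ND6 to ND5, in every RNA library, with the mean and SD of each treatment (n = 3) beside the points. The mitochondrial share lies at 25.1% to 26.6% in DMSO and at 28.2% to 29.9% in palbociclib, the nuclear share near 2% in both, and the ND6 to ND5 ratio at 0.136 to 0.171 in DMSO and at 0.069 to 0.0764 in palbociclib.

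The subunits of complex I that mitochondria make form its membrane arm, the part that pumps protons. ND5, at the far end of that arm, had 4768, 4652 and 4650.4 FPKM in DMSO and 6273, 5813 and 5843 FPKM in palbociclib. Its palbociclib libraries lay above all DMSO libraries, and its rise was the largest among the mitochondrial genes (log2 change 0.35 ± 0.04 (SE), adjusted p = 0.000258). ND4 had 17933, 18099 and 18548 FPKM in DMSO and 23723, 22289 and 22656 FPKM in palbociclib, also without overlap (log2 change 0.33 ± 0.05 (SE), adjusted p = 0.000653). ND4L had 12209.9, 11907 and 13097 FPKM in DMSO and 17083, 14355 and 15617 FPKM in palbociclib (log2 change 0.34 ± 0.07 (SE), adjusted p = 0.00499). The reading frames of ND4L and ND4 overlap on 1 messenger, so reads of the pair are not fully separable. ND3 had 14319, 13897 and 15138 FPKM in DMSO and 19496, 16435 and 16904 FPKM in palbociclib and likewise did not overlap (log2 change 0.28 ± 0.07 (SE), adjusted p = 0.0124). Its call was lost when DMSO replicate 2 was left out (adjusted p = 0.0556).

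ND1 and ND2, the protein genes nearest to the ribosomal RNA genes, did not pass the test. ND1 had 6932, 7371 and 7799 FPKM in DMSO and 8229, 7628 and 8183 FPKM in palbociclib, and its groups overlapped (log2 change 0.12 ± 0.05 (SE), adjusted p = 0.106). The authors' deposited table gives ND1 a log2 change of 0.12 with an adjusted p of 0.0347, the 1 member called there and not by limma. Without DMSO replicate 3, ND1 passed in limma (0.16, adjusted p = 0.0406). ND2 had 11960.4, 12141 and 12790.1 FPKM in DMSO and 13855, 12615 and 13012 FPKM in palbociclib, again with overlap (log2 change 0.10 ± 0.05 (SE), adjusted p = 0.162). The ribosomal RNAs upstream of them, which build the mitochondrial ribosome, did not pass either. MT-RNR1 changed by 0.09, adjusted p = 0.305, and MT-RNR2 by 0.06, adjusted p = 0.47. The libraries were made from poly(A) RNA, and whether capture of the ribosomal RNAs differed between treatments was not tested.

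ND6 went the other way. It lies at 14149 to 14673 of the mitochondrial genome (RefSeq, GRCh38.p14), between ND5 and CYTB, and is read from the opposite strand. ND6 had 646, 701 and 793 FPKM in DMSO and 475, 401 and 447 FPKM in palbociclib. The palbociclib libraries all lay below the lowest DMSO library, and the fall of 38.2% was the largest change of any subunit (log2 change -0.69 ± 0.08 (SE), adjusted p = 0.000236). In the authors' deposited table its log2 change is -0.69 with an adjusted p of 2.32e-20. Against its neighbour ND5, the ratio of FPKM was 0.136, 0.151 and 0.171 in DMSO and 0.0758, 0.069 and 0.0764 in palbociclib, so the ratio in every treated library was below that in every control. This ratio is within a library and does not depend on how libraries are scaled. ND6 was called lower under all 12 alternatives tried, with log2 changes from -0.77 to -0.61. The strand setting of the counting is not given in the sources used here, and without strand, reads of ND6 and of the transcript opposite it cannot be told apart. The ND6 messenger is known for a short or absent poly(A) tail, and these libraries were made from poly(A) RNA. Whether its capture differed between treatments was not tested.

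**Figure D3:**
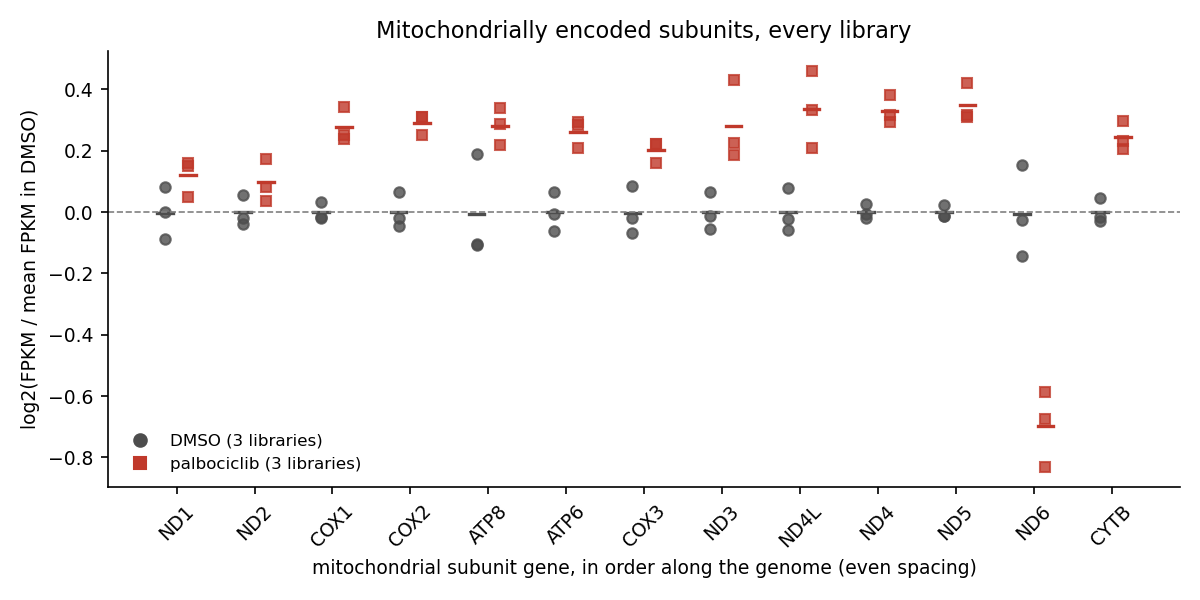
FPKM of the 13 mitochondrial subunits in every RNA library, as log2 of the ratio to the mean of the DMSO libraries, with genes in their order along the genome and short bars at the means of 3 libraries. ND1 and ND2 overlap between treatments, the genes from COX1 to ND5 and CYTB lie above the DMSO libraries, and ND6 lies between -0.83 and -0.58.

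Complex III has 1 mitochondrial subunit, cytochrome b, which carries the haems that oxidise and reduce coenzyme Q. Its gene CYTB had 11989, 12101 and 12644 FPKM in DMSO and 15030.3, 14111 and 14391 FPKM in palbociclib, without overlap (log2 change 0.24 ± 0.05 (SE), adjusted p = 0.00299). The 3 mitochondrial subunits of complex IV form the catalytic core of cytochrome c oxidase. COX1, which holds the oxygen-reducing site, had 18607, 18649.7 and 19279.9 FPKM in DMSO and 23902, 22225 and 22439.6 FPKM in palbociclib (log2 change 0.28 ± 0.05 (SE), adjusted p = 0.00219). COX2, which receives electrons from cytochrome c, had 17317, 17635 and 18705 FPKM in DMSO and 22154, 21284 and 22196 FPKM in palbociclib (log2 change 0.29 ± 0.05 (SE), adjusted p = 0.0018). COX3 had 15890.1, 16449.9 and 17673 FPKM in DMSO and 19444, 18638 and 19456 FPKM in palbociclib (log2 change 0.20 ± 0.05 (SE), adjusted p = 0.0152). All 3 were above the DMSO range in every treated library, although the call of COX3 was lost without DMSO replicate 1 (adjusted p = 0.0664), DMSO replicate 2 (0.0664) or palbociclib replicate 1 (0.0531).

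The 2 mitochondrial subunits of the ATP synthase are ATP6, which forms the proton channel beside the ring of c subunits, and the small ATP8. ATP6 had 19271, 20002 and 21052 FPKM in DMSO and 24664, 23237 and 24475 FPKM in palbociclib (log2 change 0.26 ± 0.05 (SE), adjusted p = 0.00431). ATP8 had 26944, 27016 and 33106 FPKM in DMSO and 36757, 33751 and 35436 FPKM in palbociclib (log2 change 0.29 ± 0.09 (SE), adjusted p = 0.0257), the highest FPKM of all subunits. DMSO replicate 3 was closest to the treated libraries. The ATP8 call was lost without DMSO replicate 1 (adjusted p = 0.0909), DMSO replicate 2 (0.103), palbociclib replicate 1 (0.084) or palbociclib replicate 3 (0.0607). Their reading frames overlap as well, so the values are not independent. MTATP6P1, a copy of ATP6 in the nuclear genome that can share reads with it, had 1892, 1943 and 2172 FPKM in DMSO and 2626, 2464 and 2547 FPKM in palbociclib (log2 change 0.35 ± 0.05 (SE), adjusted p = 0.00112). MTND2P28, a nuclear copy of ND2, changed by 0.05, adjusted p = 0.392 and was not called, as ND2 was not.

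Along the genome, over the 12 genes other than ND6, the changes were smallest at ND1 and ND2 and largest from ND4L to ND5. Over these 12, the log2 change and the position had a Pearson r of 0.652 and a Spearman rho of 0.538. These points share the same 6 libraries and the same long transcript, and the values describe these libraries only.

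The nuclear part of complex I holds the NADH-oxidising and coenzyme Q-binding arm together with many accessory subunits. Of 36 nuclear subunits, 4 were higher and 6 lower, with a median of 0.01. The accessory subunit NDUFA1 had 154, 142 and 154 FPKM in DMSO and 180.1, 179 and 171 FPKM in palbociclib (log2 change 0.23 ± 0.04 (SE), adjusted p = 0.00192). NDUFA3, another accessory subunit, had 56.8, 53.5 and 53.9 FPKM in DMSO and 61.9, 63.3 and 60.0 FPKM in palbociclib (log2 change 0.17 ± 0.04 (SE), adjusted p = 0.00608). Both were higher in every treated library than in any control.

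The 3 largest falls of complex I were in accessory subunits too. NDUFB6, of the membrane arm, had 43.0, 44.6 and 40.4 FPKM in DMSO and 37.2, 38.9 and 35.7 FPKM in palbociclib (log2 change -0.19 ± 0.05 (SE), adjusted p = 0.0126). NDUFA6 had 79.1, 77.3 and 81.7 FPKM in DMSO and 69.1, 73.1 and 68.6 FPKM in palbociclib (log2 change -0.17 ± 0.04 (SE), adjusted p = 0.00578). NDUFA12 had 167, 163 and 169 FPKM in DMSO and 153, 154 and 147 FPKM in palbociclib (log2 change -0.14 ± 0.03 (SE), adjusted p = 0.00867). In all 3, every treated library lay below every control, which the rule for naming these genes required, as it did for NDUFA1 and NDUFA3. Outside the rule for named genes, and chosen after their values were seen, NDUFB4 passed at 0.09, NDUFS6 at -0.12, NDUFS3 at -0.10 and NDUFB10 at -0.09 on the log2 scale. The other 26 nuclear subunits of complex I, among them NDUFV1, which binds NADH, and NDUFS1, its partner in the electron path, did not pass. NDUFV1 changed by -0.03, adjusted p = 0.358, and NDUFS1 by -0.02, adjusted p = 0.587. Of the 11 NDUFB members, NDUFB4 rose, NDUFB6 and NDUFB10 fell and the others did not pass.

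Complex II oxidises succinate and is also an enzyme of the citric acid cycle. Its flavoprotein SDHA had 94.1, 89.9 and 93.3 FPKM in DMSO and 89.1, 88.9 and 84.1 FPKM in palbociclib, with no call (log2 change -0.08 ± 0.04 (SE), adjusted p = 0.098). The iron-sulphur subunit SDHB had 68.6, 64.0 and 67.0 FPKM in DMSO and 64.3, 68.1 and 63.2 FPKM in palbociclib, with overlap (log2 change -0.03 ± 0.04 (SE), adjusted p = 0.603). The membrane anchors SDHC and SDHD went opposite ways. SDHC had 152, 157 and 174 FPKM in DMSO and 179.8, 177 and 179 FPKM in palbociclib (log2 change 0.15 ± 0.05 (SE), adjusted p = 0.034), and SDHD had 97.3, 92.5 and 99.8 FPKM in DMSO and 88.4, 86.6 and 85.1 FPKM in palbociclib (log2 change -0.15 ± 0.04 (SE), adjusted p = 0.00919). The SDHC call was lost without each library in turn other than DMSO replicate 3, with adjusted p-values from 0.0706 to 0.11. SDHD stayed past the threshold under every alternative.

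In complex III, 3 of 8 nuclear subunits were higher and 1 was lower, with a median of 0.02. UQCR11, the smallest subunit of the complex, had 60.4, 59.1 and 70.8 FPKM in DMSO and 83.3, 89.7 and 74.5 FPKM in palbociclib. The gain of 30.0% was the largest of any nuclear subunit, and the highest DMSO library was close to the lowest palbociclib library (log2 change 0.37 ± 0.08 (SE), adjusted p = 0.00656). UQCRB, which takes part in binding coenzyme Q, had 287, 267 and 292 FPKM in DMSO and 319.5, 316 and 307 FPKM in palbociclib (log2 change 0.16 ± 0.04 (SE), adjusted p = 0.0122). The core subunits UQCRC1 and UQCRC2, which face the matrix, moved apart. UQCRC2 had 198, 198 and 202 FPKM in DMSO and 222, 218 and 215 FPKM in palbociclib (log2 change 0.13 ± 0.03 (SE), adjusted p = 0.00577), and UQCRC1 had 99.5, 103 and 99.9 FPKM in DMSO and 92.1, 93.2 and 84.0 FPKM in palbociclib (log2 change -0.17 ± 0.04 (SE), adjusted p = 0.0141). The UQCRC1 call was lost without DMSO replicate 2 (adjusted p = 0.0528). UQCRH was not called (-0.09, adjusted p = 0.0804), and its copy UQCRHL was at 0.097 FPKM in DMSO and 0.111 in palbociclib on average.

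Complex IV had the highest nuclear median, 0.07 (0.0402 when DMSO replicate 2 was left out, 0.0452 and 0.111 when palbociclib replicates 1 and 3 were), with 5 of 11 nuclear subunits higher and 1 lower. NDUFA4, named for complex I but now known as a subunit of cytochrome c oxidase, had 134, 123 and 141 FPKM in DMSO and 167, 162 and 149.5 FPKM in palbociclib (log2 change 0.27 ± 0.06 (SE), adjusted p = 0.00538). Counted in complex I instead, it makes 5 higher and 6 lower of 37 there, and leaves 4 higher and 1 lower of 10 in complex IV. COX7A2 had 283, 288 and 299 FPKM in DMSO and 336, 319 and 304 FPKM in palbociclib (log2 change 0.14 ± 0.04 (SE), adjusted p = 0.0257). COX7C had 471, 462 and 486 FPKM in DMSO and 525, 514 and 499 FPKM in palbociclib (log2 change 0.11 ± 0.03 (SE), adjusted p = 0.0216). Both are small membrane subunits, and both lost their call without DMSO replicate 1 (adjusted p = 0.0864 and 0.0659), DMSO replicate 2 (0.0737 and 0.0832), palbociclib replicate 1 (0.0818 and 0.0778) or palbociclib replicate 2 (0.0629 and 0.0599). COX6C at 0.11 and COX6A1 at 0.10 passed outside the naming rule. COX8A, also a small membrane subunit, had 449, 482 and 453 FPKM in DMSO and 422, 444 and 402 FPKM in palbociclib and was lower (log2 change -0.13 ± 0.04 (SE), adjusted p = 0.0478). Its call was the closest to the threshold and was lost without any 1 library other than palbociclib replicate 2, at adjusted p-values of 0.0603 to 0.156. COX4I1, the large regulatory subunit, had 479, 473 and 483 FPKM in DMSO and 509, 493 and 472 FPKM in palbociclib and was not called (0.04, adjusted p = 0.393).

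In complex V, 2 of 17 nuclear subunits were higher and none was lower. Both belong to F1, the head that makes ATP. ATP5F1A, the alpha subunit, had 267, 262 and 282 FPKM in DMSO and 324, 322 and 314 FPKM in palbociclib, without overlap (log2 change 0.24 ± 0.03 (SE), adjusted p = 0.000617). Its partner in the head, the beta subunit ATP5F1B, had 649.8, 632 and 667 FPKM in DMSO and 654, 653 and 630.2 FPKM in palbociclib and did not change past the test (log2 change -0.01 ± 0.03 (SE), adjusted p = 0.854). ATP5F1E, the small epsilon subunit, had 52.3, 52.2 and 54.6 FPKM in DMSO and 57.6, 63.0 and 57.9 FPKM in palbociclib (log2 change 0.16 ± 0.04 (SE), adjusted p = 0.0155). Its call was lost without DMSO replicate 1 (adjusted p = 0.0512) or DMSO replicate 2 (0.0534). Subunit c, which forms the rotating ring, is encoded by 3 genes that give the same mature protein. None was called: ATP5MC1 changed by -0.04, adjusted p = 0.414, ATP5MC2 by 0.05, adjusted p = 0.306 and ATP5MC3 by 0.03, adjusted p = 0.582. The other 11 lay between -0.08 (ATP5PF) and 0.07 (ATP5MK). The read-through ATP5MF-PTCD1 was not called (0.06, adjusted p = 0.621).

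**Figure D4:**
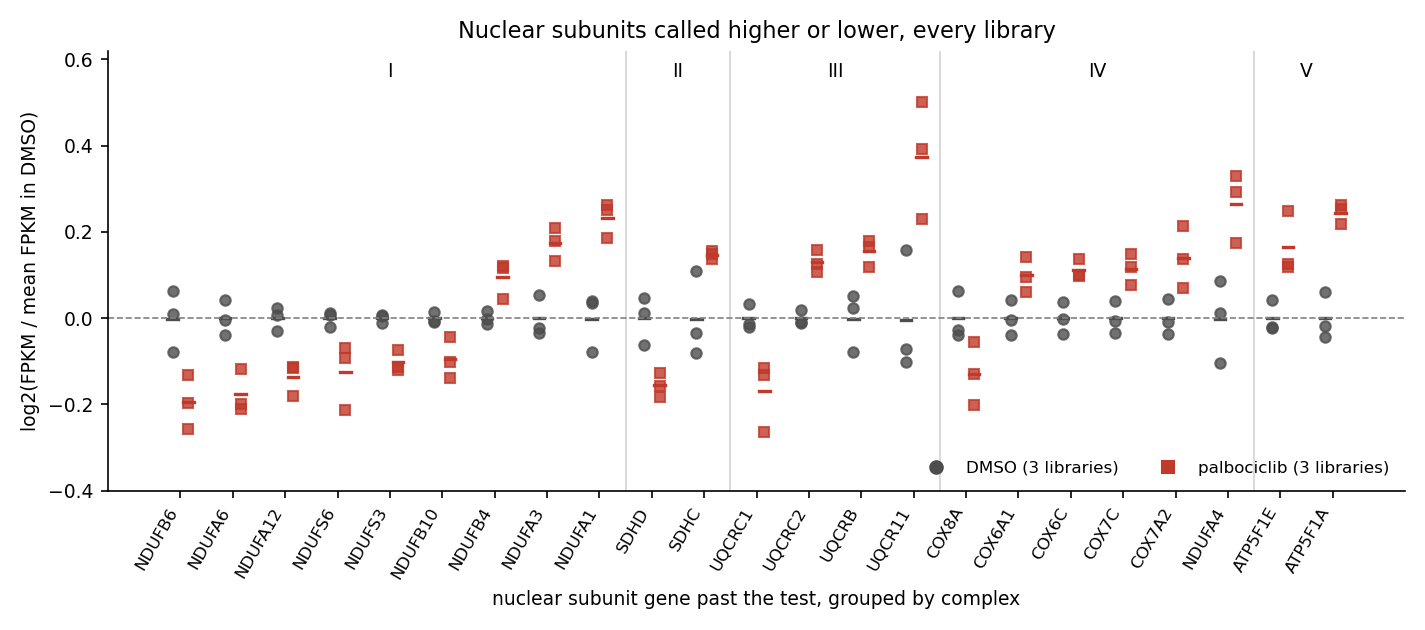
Nuclear subunits past the test, 23 of the 24, as log2 of FPKM over the mean of the DMSO libraries, with 1 point per library and short bars at the means of 3 libraries, grouped by complex. Treated and control libraries are apart in each gene shown, UQCR11 has the widest spread, and complexes I to IV each hold subunits on both sides of 0.

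In levels per transcript length, in FPKM, the nuclear subunits ran from 20.2 FPKM (NDUFV3) to 691 FPKM (COX6A1) in DMSO, with a median of 164. The mitochondrial subunits ran from 714 FPKM (ND6) to 29022 FPKM (ATP8), with a median of 14451. The median nuclear level was 114 FPKM in complex I, 94.5 in complex II, 150.2 in complex III, 290.0 in complex IV and 251 in complex V. The next lowest mitochondrial subunit after ND6 was ND5, at 4690.0 FPKM. Poly(A) capture can differ between genes, and the limits given above for ND6 and for genes with overlapping frames hold for these levels too.

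Other genes of the pathway were taken from lists of assembly factors, of mitochondrial DNA and RNA upkeep, of regulators and of electron carriers. The assembly factors, which build the complexes without staying in them, had 5 higher and 19 lower of 52 tested, with a median of -0.05, while 43.7% of all genes were called. For complex I, 2 were higher and 7 lower of 16, and for complex IV 2 and 8 of 23. FOXRED1, an assembly factor of complex I, had 53.4, 53.7 and 54.2 FPKM in DMSO and 34.9, 36.4 and 35.9 FPKM in palbociclib (log2 change -0.58 ± 0.03 (SE), adjusted p = 2.35e-06). CMC2, of complex IV, had 109, 102 and 105 FPKM in DMSO and 68.2, 65.7 and 64.5 FPKM in palbociclib (log2 change -0.66 ± 0.04 (SE), adjusted p = 1.97e-06). UQCC1, needed to make cytochrome b, had 19.2, 20.2 and 19.1 FPKM in DMSO and 27.9, 27.9 and 25.3 FPKM in palbociclib (log2 change 0.45 ± 0.05 (SE), adjusted p = 0.000151), and SURF1, of complex IV, changed by 0.29, adjusted p = 0.00043.

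Of 29 genes that copy, transcribe and process mitochondrial DNA and RNA, 2 were higher and 6 lower (27.6%, against 43.7% of all genes), with a median of -0.0047. TFAM, which packs mitochondrial DNA and starts its transcription, had 57.2, 54.3 and 54.7 FPKM in DMSO and 37.9, 39.2 and 38.5 FPKM in palbociclib and was lower in every treated library (log2 change -0.51 ± 0.03 (SE), adjusted p = 7.87e-06). MGME1, an exonuclease of mitochondrial DNA replication, had 29.5, 29.9 and 30.0 FPKM in DMSO and 20.1, 20.5 and 20.2 FPKM in palbociclib (log2 change -0.53 ± 0.03 (SE), adjusted p = 5.82e-06). MTERF2, a member of the mitochondrial transcription termination factor family, had 18.5, 18.1 and 19.0 FPKM in DMSO and 25.0, 27.4 and 23.8 FPKM in palbociclib (log2 change 0.43 ± 0.05 (SE), adjusted p = 0.000303), and TOP1MT, the mitochondrial topoisomerase, changed by 0.20, adjusted p = 0.0107. The mitochondrial RNA polymerase POLRMT was not called (-0.01, adjusted p = 0.911), nor was LRPPRC, which stabilises mitochondrial messengers (0.01, adjusted p = 0.87). POLRMT and LRPPRC were named after their values were seen. In these libraries TFAM was therefore lower while 10 of the 13 messengers of the mitochondrial genome were higher.

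Of 8 tested regulators of mitochondrial biogenesis, 4 were lower and none higher, while 43.7% of all genes were called, 22.9% lower. The transcription factor NRF1 had 5.42, 5.36 and 4.66 FPKM in DMSO and 3.71, 3.67 and 3.85 FPKM in palbociclib (log2 change -0.37 ± 0.07 (SE), adjusted p = 0.00284). GABPB1, a subunit of the ETS-family factor GABP, had 14.2, 14.3 and 14.6 FPKM in DMSO and 11.3, 11.2 and 10.7 FPKM in palbociclib (log2 change -0.35 ± 0.04 (SE), adjusted p = 0.000293). The other two were GABPA at -0.20, the DNA-binding subunit of GABP, and YY1 at -0.28, named because the count is small. PPARGC1A, the coactivator PGC-1 alpha, was scarce and not called: it had 0.851, 0.751 and 0.795 FPKM in DMSO and 1.53, 1.05 and 1.01 FPKM in palbociclib (log2 change 0.28 ± 0.10 (SE), adjusted p = 0.057). With a pseudocount of 0.1 its log2 change was 0.51 (adjusted p = 0.0551), without palbociclib replicate 1 it was 0.18 (0.166), and without palbociclib replicate 3 it passed, at 0.34 (0.0478).

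The mobile carriers and the enzymes of coenzyme Q synthesis had 5 higher and 7 lower of 19 (63.2%, against 43.7% of all genes). CYCS, cytochrome c, which carries electrons from complex III to complex IV, had 177, 175 and 193 FPKM in DMSO and 142, 135 and 139 FPKM in palbociclib (log2 change -0.39 ± 0.04 (SE), adjusted p = 0.000153). CYC1, cytochrome c1 of complex III, which the symbol rule does not take in, had 97.6, 99.5 and 101 FPKM in DMSO and 87.5, 84.5 and 79.8 FPKM in palbociclib (log2 change -0.24 ± 0.04 (SE), adjusted p = 0.00131). COQ2, which joins the ring and the tail of coenzyme Q, had 12.8, 13.3 and 13.9 FPKM in DMSO and 5.15, 5.53 and 5.35 FPKM in palbociclib, the largest change in these lists (log2 change -1.18 ± 0.05 (SE), adjusted p = 6.04e-07). PDSS1, which helps make that tail, changed by -0.61, adjusted p = 0.000166. ETFA, which brings electrons from fatty acid oxidation, had 222, 214 and 213 FPKM in DMSO and 279, 269 and 262 FPKM in palbociclib (log2 change 0.32 ± 0.03 (SE), adjusted p = 0.000118), and COQ10B rose by 0.21, adjusted p = 0.0108. Of 9 tested partners and isoforms that the symbol rule leaves out, 1 was higher and 1 lower: ATP5IF1, the inhibitor of the ATP synthase, at 0.11, adjusted p = 0.0285, and CYC1. The ATP5IF1 call was lost without DMSO replicate 1 (adjusted p = 0.0801), DMSO replicate 2 (0.0958) or palbociclib replicate 2 (0.0967).

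Open chromatin changed little at those starts of the nuclear genes that had a peak. Of the 76 nuclear subunits, 43 had an ATAC peak within 1 kb of a RefSeq start on GRCh38, in 44 peaks. None was higher and 4 were lower at an adjusted p under 0.05 (edgeR quasi-likelihood test, Benjamini-Hochberg over 38121 peaks). Subunits without such a peak were not tested. The log2 changes of the subunits' peaks ran from -0.27 to 0.08. In simulated peaks the test recovered 26.9% of log2 changes of 0.3. Few peaks were changed in that simulation, so its rate does not give the recovery for the subunits' peaks. Of all 7235 promoter peaks, 13.1% were called, 1.78% higher and 11.3% lower. The median log2 change was -0.05 at the subunits' peaks and -0.05 at all promoter peaks, with 36 of 44 and 4843 of 7235 below 0. The difference between the subunits and other promoters was not tested. Treated and control libraries did not overlap at 14 of the 44 peaks, or 31.8%, against 30.1% of all promoter peaks. The libraries held between 12830062 and 18250496 reads in peaks. No peak lay on the mitochondrial genome. Without 1 library, the number of subunit peaks lower was 0 (DMSO replicate 1), 4 (DMSO replicate 2), 1 (DMSO replicate 3), 1 (palbociclib replicate 1), 3 (palbociclib replicate 2) and 1 (palbociclib replicate 3).

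The largest fall was at ATP5F1A, in a peak at chr18:46104038-46104808 that also covers the start of HAUS1, a subunit of the mitotic augmin complex, on the other strand. Its counts, scaled to library size by TMM and called CPM here, were 40.6, 37.4 and 38.9 in DMSO and 31.8, 34.9 and 30.1 in palbociclib (log2 change -0.27, edgeR adjusted p = 0.0135). HAUS1 RNA was lower (-0.67, adjusted p = 2e-05), while ATP5F1A RNA was higher, although ATP5F1A also has a start in another peak and its FPKM are per gene. A second ATP5F1A peak, at chr18:46097805-46098722, with no other gene's start, was not called (log2 change -0.06, edgeR adjusted p = 0.654). Without DMSO replicate 1, palbociclib replicate 1 or palbociclib replicate 3 the first peak had an edgeR adjusted p of 0.0676, 0.0606 and 0.0634.

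NDUFB10, an accessory subunit at the far end of the membrane arm of complex I, was lower in both assays by the tests used here. Its peak at chr16:1958991-1959939 had 88.3, 85.5 and 91.3 CPM in DMSO and 82.8, 78.8 and 71.5 CPM in palbociclib, with all treated libraries below all controls (log2 change -0.18, edgeR adjusted p = 0.0249). Its RNA had 154, 151 and 151 FPKM in DMSO and 138, 148 and 142 FPKM in palbociclib (log2 change -0.09 ± 0.03 (SE), adjusted p = 0.0442). In the authors' deposited table this RNA change was not called (DESeq2, adjusted p = 0.0907). The peak lost its call without DMSO replicate 1 (edgeR adjusted p = 0.0645), DMSO replicate 3 (0.125) or palbociclib replicate 3 (0.157).

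NDUFS3, a core subunit of complex I, had 85.9, 83.0 and 86.4 CPM in DMSO and 77.4, 76.9 and 72.9 CPM in palbociclib in a peak at chr11:47578406-47579407 (log2 change -0.17, edgeR adjusted p = 0.0379). The peak also covers the start of KBTBD4, whose RNA was higher (0.15, adjusted p = 0.0276), while NDUFS3 RNA had 89.0, 90.2 and 90.0 FPKM in DMSO and 82.6, 85.3 and 83.0 FPKM in palbociclib (log2 change -0.10 ± 0.03 (SE), adjusted p = 0.0214). In the authors' deposited table the NDUFS3 RNA change was not called (DESeq2, adjusted p = 0.067). The call of the peak was lost without each library in turn other than DMSO replicate 2, with edgeR adjusted p-values from 0.0554 to 0.127. The fourth peak, at ATP5PD and shared with KCTD2, fell at the edge of the threshold (edgeR adjusted p = 0.0456) and is named because the count is small. In 18 of the 44 peaks another gene's start lay within 1 kb, so those peaks belong to 2 genes at least.

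**Figure D5:**
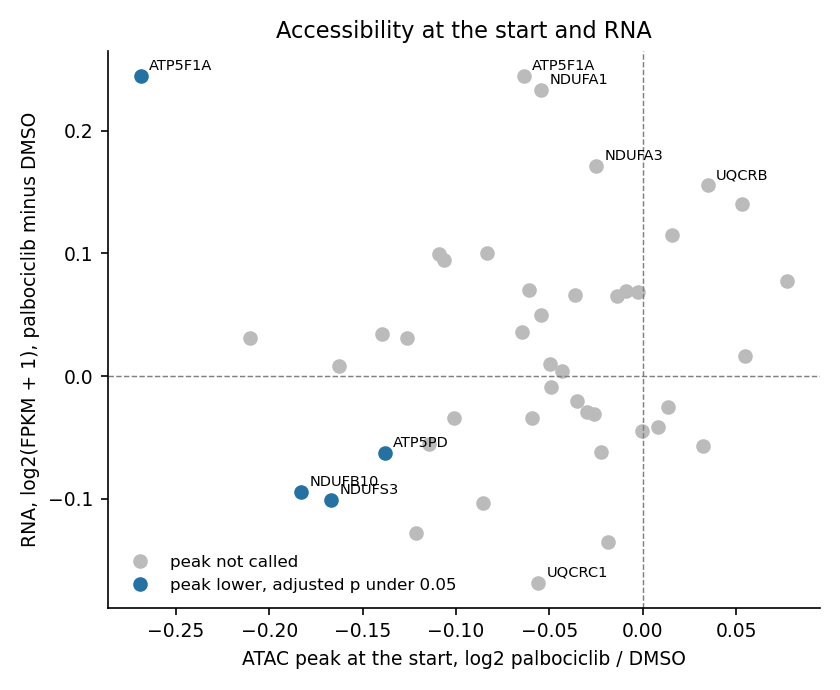
Log2 change of each ATAC peak at the start of a nuclear subunit (44 peaks, with 2 at ATP5F1A) against the change in log2(FPKM + 1) of the same gene. The 4 peaks called lower lie left of 0, 3 of them at genes with a negative RNA difference and 1, at ATP5F1A, at a gene with a positive one. Peaks that were not called, such as that of ATP5ME at -0.21, lie among them.

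The promoter sequences of 4 subunits are shown. NDUFB10 was taken for its called peak. UQCR11, COX8A and UQCRC1 are named subunits with a call and with ETS, YY1 or NRF1 letters, which are given below. Having such letters was thus a condition for showing them. Called subunits without these letters, such as NDUFA4 and NDUFB6, are not shown. The sequences come from genes with 1 listed start and no gene record within the bases printed. Each gives the 250 bases before the start, 5′ to 3′ on the strand of the gene, from RefSeq on GRCh38.p14: UQCR11 at chr19:1605463-1605712 (minus strand), COX8A at chr11:63974370-63974619 (plus), UQCRC1 at chr3:48609647-48609896 (minus) and NDUFB10 at chr16:1959288-1959537 (plus). Capitals mark letters of the ETS motif bound by GABP (CCGGAAG), the SP1 motif (GGGCGG) or an E2F motif (TTTGGCGC), read on both strands, so that the reverse complement appears where the match is on the other strand.
UQCR11: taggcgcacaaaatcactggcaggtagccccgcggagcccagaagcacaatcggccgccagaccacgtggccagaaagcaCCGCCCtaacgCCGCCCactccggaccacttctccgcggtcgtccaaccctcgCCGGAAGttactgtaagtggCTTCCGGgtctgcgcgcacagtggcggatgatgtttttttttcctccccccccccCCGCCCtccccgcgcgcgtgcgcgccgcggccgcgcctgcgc
COX8A: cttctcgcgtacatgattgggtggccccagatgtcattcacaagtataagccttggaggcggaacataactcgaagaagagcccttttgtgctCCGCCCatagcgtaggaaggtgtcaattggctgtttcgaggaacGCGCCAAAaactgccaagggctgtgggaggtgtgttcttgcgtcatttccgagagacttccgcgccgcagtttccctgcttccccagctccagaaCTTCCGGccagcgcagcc
UQCRC1: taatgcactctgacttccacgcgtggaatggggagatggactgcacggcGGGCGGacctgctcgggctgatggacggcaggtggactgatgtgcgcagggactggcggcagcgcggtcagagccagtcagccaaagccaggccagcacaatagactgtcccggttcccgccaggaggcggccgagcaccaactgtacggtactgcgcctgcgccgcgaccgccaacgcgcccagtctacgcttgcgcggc
NDUFB10: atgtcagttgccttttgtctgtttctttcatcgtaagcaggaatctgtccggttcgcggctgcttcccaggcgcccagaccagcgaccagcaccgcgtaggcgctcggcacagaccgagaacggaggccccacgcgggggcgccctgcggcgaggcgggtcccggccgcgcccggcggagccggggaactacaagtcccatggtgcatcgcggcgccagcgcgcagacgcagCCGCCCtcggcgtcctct
UQCR11 has a pair of ETS matches, beginning 117 and 97 bases before the start, and SP1 matches at 170, 159 and 42 bases. COX8A has an ETS match at 18 bases, an E2F match at 113 and an SP1 match at 157. UQCRC1 and NDUFB10 have 1 SP1 match each, at 201 and 18 bases. UQCRC1 also has YY1 letters in the window of 250 bases before to 50 after its start, but not within the bases printed.

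Over the 64 nuclear subunits with a RefSeq entry, in windows of 250 bases before to 50 after a start, ETS letters were present at 32.8% of genes, against 12.2% of all genes with an entry. The YY1 letters AAGATGGCG were present at 14.1% against 2.14%, and the NRF1 letters GCGCATGCG at 17.2% against 2.34%. SP1 letters were present at 64.1% against 48.3%, and TATAAA at 9.38% against 14.0%. The E2F letters stood at 2 subunits, COX8A and NDUFS6, or 3.13% against 0.795%. Both were called lower in RNA by limma, which called 22.9% of all genes lower. Of the 62 subunits without these letters, 11 were higher and 7 lower. The COX8A call was lost without most single libraries, and NDUFS6 was not called in the authors' deposited table (DESeq2, adjusted p = 0.052). Within the subunits, the median log2 RNA change was 0.03 for the 21 genes with ETS letters and 0.0081 for the 43 without. For the 9 with YY1 letters it was -0.06, with 2 lower and none higher, and for the 55 without it was 0.03, with 11 higher and 7 lower. For the 11 with NRF1 letters it was 0.03, with 2 higher and 2 lower, and for the 53 without it was 0.0098, with 9 higher and 7 lower. Over all genes, 20.9% were called higher and 22.9% lower. A match is a description of letters and shows no binding.

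Few splicing events of the nuclear subunits passed the test, which mostly misses small shifts. In simulated skipped exons it recovered 0% of shifts of 0.5 (log2 odds), 3.17% of 1 and 44.1% of 2. Of 666 events listed for the members, 143 in 46 genes had enough reads in both forms to be tested, and 2 had an adjusted p under 0.05, both with lower inclusion (edgeR quasi-likelihood test of the reads for each form). Over all 37445 events 0.355% were called, a smaller share than among the member events. At an unadjusted p under 0.05 the shares were 13.3% of member events and 8.53% of all events. No mitochondrial event was among them, since mitochondrial genes have no introns.

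NDUFB10, whose RNA and peak were lower, also had less of a retained intron. The intron, of 160 bases at chr16:1961637-1961796, had an inclusion level, the share of transcripts that keep it, of 0.221, 0.214 and 0.178 in DMSO and 0.169, 0.160 and 0.128 in palbociclib, without overlap. The mean went from 0.204 ± 0.0229 to 0.152 ± 0.0211 (SD, n = 3; edgeR adjusted p = 0.0154). Between 796 and 1378 reads per library supported the retained form and between 1402 and 2065 the spliced form. In ATP5MK, a small membrane subunit of the ATP synthase, an exon of 287 bases at chr10:103395746-103396032 was included at 0.0482, 0.0538 and 0.0487 in DMSO and at 0.0332, 0.0367 and 0.0261 in palbociclib (edgeR adjusted p = 0.0323). Those levels are for 1 pair of flanking exons. The same exon in a second listed event was included at 0.540, 0.715 and 0.553 in DMSO and at 0.542, 0.454 and 0.406 in palbociclib, with overlap and no call (edgeR adjusted p = 0.474), on 27 to 59 skipping reads per library. ATP5MK RNA as a whole was not called (0.07, adjusted p = 0.245). Without the requirement that the rarer form make up 5% of reads, neither passed, and the smallest adjusted p of a member event was 0.0905 (edgeR). The number of member events with lower inclusion was 0 without DMSO replicate 1, DMSO replicate 2 or palbociclib replicate 3, and 1 without DMSO replicate 3 or palbociclib replicate 2.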

How the data were processed

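T-47D RNA (3 DMSO and 3 palbociclib libraries) and ATAC-seq (3 and 3) were grouped by the labels. The submitters' processing notes name fastp 0.23.2, Salmon 1.10.2, STAR 2.7.10b, SAMtools 1.16 and DESeq2 1.44.0 for RNA on GRCh38, and Bowtie2, Picard and MACS3 for ATAC, with no roles. FPKM per library were deposited by the authors, and their scaling step is not named in the sources used here. The median ratio of genes to their geometric mean, over genes above 0 in every library, was 1.0031 in each library. The libraries are therefore on a common median-of-ratios scale. Per the file headers, their DESeq2 results hold log2 changes, a Wald score, p-values and a signal, the mean normalized count. Splicing tables give inclusion and skipping reads and a level difference score, per the labels and the file headers. Peak counts were made by the authors with featureCounts 2.0.6 over 1 peak set.

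RNA was tested with limma 3.58.1 (R 4.3.3) on log2(FPKM + 1), which understates changes of low genes, keeping genes whose mean FPKM was 0.5 or more. Peaks and splicing events were tested with edgeR 4.0.16, events with at least 20 reads per library on average and 5% of the rarer form. All p-values were Benjamini-Hochberg adjusted over all features, with a threshold of 0.05. The scripts were tested on simulated data. Named genes were all mitochondrial members, complex II, the subunit c genes, COX4I1 and, per complex, up to 3 nuclear members with the largest called rise and fall without overlap; in other lists, up to 2 each way and 5 fixed genes. One gene that this rule names is not reported here. The members and lists were chosen with earlier results of these data known. The labels do not say that replicate numbers pair libraries, and the main tests used no pairing. The correlations of same-numbered deviations were 0.11, -0.01 and 0.09 in RNA and 0.01, 0.04 and -0.03 in ATAC. Those of differently numbered libraries ran from -0.14 to 0.05 in RNA and from -0.07 to 0.06 in ATAC. With 3 libraries per group, these values cannot settle whether the numbers pair libraries.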

Additional observations from a re-analysis of the deposited data

How the results depend on the processing

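With no filter on low values 6 mitochondrial subunits were higher. Quantile normalization gave 23 nuclear and 0 mitochondrial subunits higher, medians of 0.00 (mitochondrial), 0.059 (complex I nuclear) and -0.0099 (complex II), and opposite signs with no call for ND2 (-0.074), COX1 (-0.019), COX2 (-0.015), COX3 (-0.056), SDHB (0.023) and COX4I1 (-0.011), since it sets equal ranks to equal values. FPKM scaled to the same sum, added after the data were seen, gave 15 members higher and 26 lower, of them 5 and 25 nuclear. Its medians were -0.041 over all members, -0.051 nuclear, 0.20 mitochondrial, and -0.068, -0.13, -0.058, -0.0090 and -0.049 for the nuclear subunits of complexes I to V, and ATP5MC2 (-0.029), ATP5MC3 (-0.049) and COX4I1 (-0.040) changed sign with no call. The count of peaks lower was 2 with library totals, 1 with DESeq2 1.42.0 and 2 with the replicate block. Splicing gave 0 events without the filter on the rarer form, and 1 higher and 4 lower with the replicate block, whose cause was not tested.

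With the replicate block 20 members were higher and 9 lower in RNA, against 25 and 10 without it. Leaving out 1 library at a time gave 15 to 29 members higher and 6 to 9 lower, 8 to 19 and 5 to 8 for the nuclear subunits, nuclear medians of -0.0016 to 0.035 (complex I), -0.079 to -0.031 (II), 0.0045 to 0.046 (III), 0.040 to 0.11 (IV) and 0.00035 to 0.049 (V), 0 to 4 peaks lower, and 0 to 1 events with higher and 0 to 2 with lower inclusion. Of the 46 named RNA changes past the threshold, 23 kept direction and call under every alternative. In simulated RNA data over 15869 genes, 3.23% of changes of 0.15 (log2), 28.6% of 0.3 and 83.8% of 0.6 were recovered. Changes of these sizes were in 62, 70 and 68 genes, a far smaller share than the 43.7% called in the data. With so few genes changed the adjusted threshold is stricter, so these rates do not give the recovery for the subunits.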
